A study of Mus musculus with 10 samples.

Results

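Immediate early genes are transcribed within minutes of a growth signal or a stress, without new protein synthesis, and most of their RNAs and proteins are short-lived. A set of 10 such genes was followed here in T-antigen immortalized mouse embryonic fibroblasts, namely Fos, Fosb, Fosl1, Fosl2, Jun, Junb, Egr1, Klf2, Klf4 and Zfp36. They were chosen by name, with earlier results of these data known. Each of the 10 symbols has 1 identifier among the 78317 genes of the count table. Of these members, 9 had enough counts to be tested, as did 13198 genes in all, and Fosb, with 72 counts over all libraries, did not. The fibroblasts were wildtype, carried T antigen (a viral protein that lets primary cells keep dividing) and had been kept in complete medium under 10% CO2 at 37 °C. They then spent 24 h at 2% CO2, a level that makes bicarbonate-buffered medium more alkaline, or stayed at 10% CO2. There were 5 libraries at 2% CO2 and 5 at 10% CO2, with replicates 1 to 3 of each in batch 1 and replicates 4 and 5 in batch 2. What the batches were, and whether replicates came from separate cultures, is not given in the labels, so p-values reflect library-to-library spread, which may be technical.

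FOS and JUN family proteins pair through leucine zippers to form AP-1, a transcription factor activated by the ERK, JNK and p38 kinase cascades. EGR1 is a zinc finger factor of the same early response, and its gene, like Fos, is switched on through serum response factor (SRF) and its ternary complex partners. KLF2 and KLF4 are Kruppel-like zinc finger factors, induced in endothelium through the kinase ERK5 and MEF2 proteins. ZFP36 (tristetraprolin) is not a transcription factor but an RNA-binding protein that speeds the decay of mRNAs with AU-rich elements, among them those of cytokines.

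The proximal promoters of the called Kruppel-like factors and of Zfp36 are shown because the calls of these members held without any single library, and that of Jun because it shares a motif with Klf2 and was not called. RefSeq promoter entries (GRCm38.p6, from 250 bases before to 50 after the start site) were searched for 8 of the 10 members, with Fosl1 and Egr1 left out. The entries lie at chr8:72318812-72319111 (+ strand), chr4:55532426-55532725 (- strand), chr7:28379179-28379478 (- strand) and chr4:95052173-95052472 (- strand), and are written along the strand of the gene. Capitals mark matches on either strand to a MEF2 motif, a CArG box (the SRF site), GCGGGGGCG (an EGR motif), TGANTCA (AP-1) or TGACGTCA (a cyclic AMP response element).
Klf2: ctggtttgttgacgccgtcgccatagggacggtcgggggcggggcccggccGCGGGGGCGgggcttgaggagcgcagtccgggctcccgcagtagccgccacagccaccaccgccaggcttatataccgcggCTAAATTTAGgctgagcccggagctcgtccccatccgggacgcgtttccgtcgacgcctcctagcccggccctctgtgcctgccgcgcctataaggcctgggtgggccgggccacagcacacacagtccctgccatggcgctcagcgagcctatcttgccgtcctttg
Klf4: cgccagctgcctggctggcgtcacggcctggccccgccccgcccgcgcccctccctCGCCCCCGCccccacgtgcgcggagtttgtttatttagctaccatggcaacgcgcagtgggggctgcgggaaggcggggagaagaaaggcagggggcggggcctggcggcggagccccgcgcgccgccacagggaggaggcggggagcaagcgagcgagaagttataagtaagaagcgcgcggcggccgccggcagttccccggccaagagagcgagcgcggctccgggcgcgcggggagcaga
Zfp36: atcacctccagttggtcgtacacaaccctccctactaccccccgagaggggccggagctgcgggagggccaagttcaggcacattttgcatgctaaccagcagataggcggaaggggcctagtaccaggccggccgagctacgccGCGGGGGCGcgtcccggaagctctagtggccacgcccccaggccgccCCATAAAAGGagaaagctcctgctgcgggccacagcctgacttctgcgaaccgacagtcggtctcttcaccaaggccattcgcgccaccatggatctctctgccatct
Jun: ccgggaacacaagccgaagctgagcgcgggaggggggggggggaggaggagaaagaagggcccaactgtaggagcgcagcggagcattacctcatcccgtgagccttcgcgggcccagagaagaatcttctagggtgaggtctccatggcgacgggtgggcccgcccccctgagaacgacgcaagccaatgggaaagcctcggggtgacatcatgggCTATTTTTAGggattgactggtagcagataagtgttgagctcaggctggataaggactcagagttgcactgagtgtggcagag

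The EGR motif GCGGGGGCG was found in 5 of the 8 member promoters (Klf2, Klf4, Zfp36, Fosl2 and Fosb), against 2.91% of 32851 RefSeq promoters of the same length and 5.54% of the 11438 that carry the symbol of a tested gene. In Klf2, Zfp36 and Klf4 it begins at positions -199, -105 and -194 from the start site. It overlaps a GC box (GGGCGG) in Klf2, Klf4, Fosl2 and Fosb, and GC boxes were in 7 of the 8 member promoters and in 64.7% of promoters of tested genes. A MEF2 motif was in Klf2 (position -118) and Jun (position -33), against 1.45% of promoters of tested genes. A CArG box was in Zfp36 (position -58), against 1.39%. No member window held an exact TGANTCA or TGACGTCA, which were in 4.82% and 3.08% of promoters of tested genes. Close variants of these letters, such as tgacatca in the Jun window, were not searched for, so such elements may have been missed. These are matches of letters, and the windows stop short of more distant elements.

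Levels are given as CPM, the counts of a gene per 1000000 counts of its library. After 24 h at 2% CO2, Klf2, Klf4 and Fosl1 were higher and Egr1 and Zfp36 lower than at 10% CO2, while Fos, Fosl2, Jun and Junb did not pass the test. Thus 3 of the 9 tested members were called higher and 2 lower by edgeR's quasi-likelihood test with batch in the model, at an adjusted p under 0.05 over all tested genes. Over all tested genes 12.0% were called, 5.30% higher and 6.73% lower. The median log2 fold change was -0.22 over the tested members and 0.00281 over all tested genes. The fitted 2% over 10% CO2 fold was 1.91 for Klf4, 1.79 for Klf2, 1.49 for Fosl1, 0.613 for Egr1 and 0.617 for Zfp36. With library totals in place of TMM scaling, the share of all called genes that were higher was 62.7%, against 44.1% with TMM. The same 5 members were called under both scalings.

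**Figure D1:**
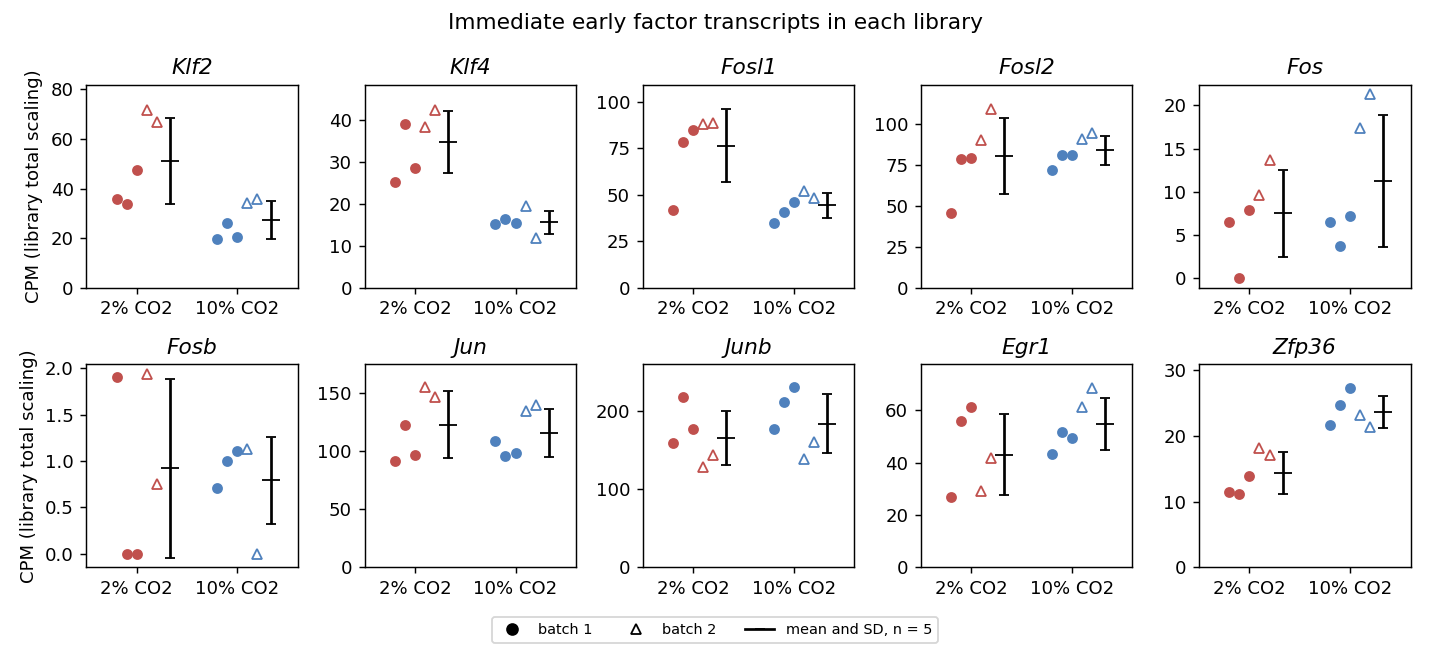
CPM of each member in every library, 2% CO2 left and 10% CO2 right of each panel. Circles are batch 1, triangles batch 2, and bars the mean and SD of 5 libraries. The CO2 levels do not overlap for Klf4 and Zfp36.

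Depth bears on every value. Library totals ran from 178676 to 12354538 estimated counts. The shallowest were 2% CO2 replicates 2 and 3 (178676 and 506405) and 10% CO2 replicate 5 (892318), so that 1 count in these weighs far more than in the others. The fibroblast label was met by high Col1a1 and Vim (2082 and 1839 CPM on average at 2% CO2, 4152 and 2286 CPM at 10% CO2), whereas Dcn, Lum and Pdgfra had 34, 3 and 72 counts over all libraries. Of 8 tested fibroblast markers 5 were lower at 2% CO2 (Col1a1, Col1a2, Col3a1, Thy1 and Vim) and 0 higher, while S100a4 narrowly missed the threshold at a log2 fold change of 0.82 (edgeR adjusted p = 0.0541). Without batch in the model, Col1a1, Col1a2 and Vim lost their calls (0.0503, 0.0503 and 0.145). Col3a1 and Vim were lost in batch 2 alone (0.201 and 0.217), and Thy1 in batch 1 alone (0.132). Markers of other cell types were scarce: 7 leukocyte markers summed to 1.53 to 5.60 CPM at 2% CO2 and 2.28 to 5.04 CPM at 10% CO2, with Adgre1 at 0, and 6 epithelial markers to 2.28 to 30.8 CPM at 2% CO2 and 4.70 to 9.40 CPM at 10% CO2. The 5 endothelial markers summed to 7.90 to 15.6 CPM at 2% CO2 and 4.48 to 8.43 CPM at 10% CO2. Of these Kdr was higher (log2 fold change 0.98, edgeR adjusted p = 0.0134, but 0.0675 without 2% CO2 replicate 4 and 0.155 without 10% CO2 replicate 4), while Pecam1 and Cdh5 had 6.5 and 7 counts in all. The part of these differences in the members' changes was not tested. In such bulk RNA, fewer cells of a kind and less RNA per cell cannot be told apart.

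Among the Kruppel-like factors, Klf4 was at 25.3, 39.2, 28.6, 38.4 and 42.5 CPM in 2% CO2 replicates 1 to 5, against 15.1, 16.4, 15.6, 19.5 and 11.8 CPM in 10% CO2 replicates 1 to 5. All 5 libraries at 2% CO2 were above all 5 at 10% CO2, also in the deep libraries of batch 2, where Klf4 had 474.92 and 511.83 counts at 2% CO2 and 206.42 counts in 10% CO2 replicate 4. Its log2 fold change was 0.93 ± 0.14 (SE, n = 5 each; edgeR adjusted p = 0.000213), with 0.77 ± 0.20 in batch 1 and 1.09 ± 0.19 in batch 2. Klf2 was at 35.9, 33.6, 47.4, 71.8 and 66.9 CPM at 2% CO2, against 19.5, 26.3, 20.2, 34.2 and 35.9 CPM at 10% CO2. The Klf2 ranges met only across batches: within each batch every 2% CO2 library was above every 10% CO2 library. In batch 1, however, the shallow 2% CO2 replicates 2 and 3 held only 6 and 24 counts of Klf2. For Klf4 they held 7 and 14.5 counts, so their places rest on few counts. The Klf2 log2 fold change was 0.84 ± 0.12 (SE; edgeR adjusted p = 0.000240), with 0.78 ± 0.20 in batch 1 and 0.90 ± 0.14 in batch 2. Both calls held in all 10 fits that left out a library, with adjusted p of at most 0.00523 for Klf4 and 0.00649 for Klf2. Fractional counts occurred for Klf4 in 6 libraries and for Klf2 in 1, and how these arose is not stated.

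**Figure D2:**
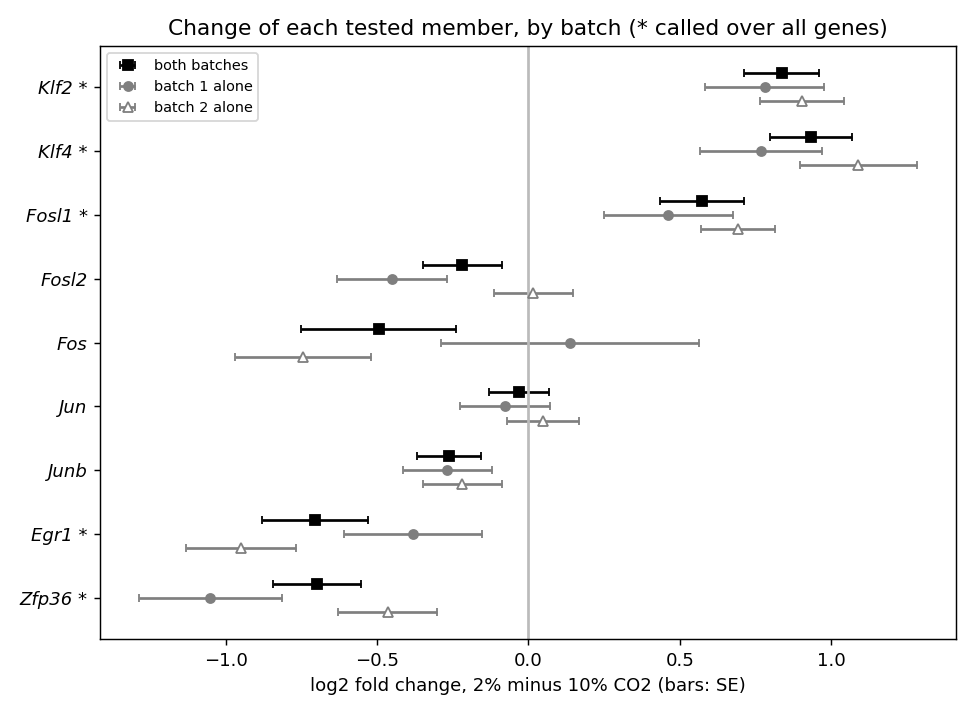
Log2 fold change, 2% minus 10% CO2, of each tested member in both batches together (squares), batch 1 (circles) and batch 2 (triangles), with SE as bars. Klf2, Klf4 and Fosl1 lie above 0 and Egr1 and Zfp36 below 0 in both batches, while Fos, Fosl2 and Jun change sign.

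In the FOS family, Fosl1 (FRA-1, an AP-1 subunit with no transactivation domain of its own) was at 42.0, 78.4, 84.9, 88.1 and 88.8 CPM in 2% CO2 replicates 1 to 5, against 34.9, 40.5, 46.0, 52.2 and 48.2 CPM at 10% CO2. Of the 2% CO2 libraries, 4 were above the whole 10% CO2 range, and 2% CO2 replicate 1 lay inside it. The log2 fold change was 0.57 ± 0.14 (SE, n = 5 each; edgeR adjusted p = 0.0116), with 0.46 ± 0.21 in batch 1 and 0.69 ± 0.12 in batch 2. The call was lost without 10% CO2 replicate 4 (adjusted p = 0.0744), without the 3 shallowest libraries (0.127), in batch 1 alone (0.203) and without the batch term (0.0732). The gene Ccdc85b overlaps Fosl1 on the opposite strand in the GENCODE M21 annotation, and the sources used here do not state whether counting used strand. Ccdc85b did not pass (log2 fold change -0.21 ± 0.13, SE, edgeR adjusted p = 0.318).

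Fosl2 (FRA-2, the nearest relative of FRA-1) was at 45.8, 78.4, 79.0, 89.9 and 109 CPM at 2% CO2, against 72.0, 81.1, 80.8, 90.7 and 94.1 CPM at 10% CO2. Its groups overlapped, and its fitted log2 change (-0.22 ± 0.13, SE) missed the threshold (edgeR adjusted p = 0.310). The count ratio of Fosl1 over Fosl2 within a library, which no scaling between libraries can alter, was 0.917, 1.00, 1.075, 0.979 and 0.812 in 2% CO2 replicates 1 to 5, against 0.485, 0.500, 0.569, 0.576 and 0.512 at 10% CO2. These ranges did not overlap, in either batch or across them, although the ratio in 2% CO2 replicate 2 rests on 14 counts of each gene. The pair was examined with its values in view, so no test is given.

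Fos itself (c-FOS, the founding member) was low and uneven, at 6.48, 0, 7.90, 9.63 and 13.7 CPM at 2% CO2, against 6.50, 3.78, 7.16, 17.3 and 21.3 CPM at 10% CO2. In 2% CO2 replicate 2 a count of 0 allows up to 16.8 CPM (3 counts, counting error only), so that library cannot place Fos. In batch 2 both 2% CO2 libraries were below both 10% CO2 libraries, and in batch 1 the groups overlapped. The log2 fold change was -0.50 ± 0.26 (SE; edgeR adjusted p = 0.232), with 0.14 ± 0.43 in batch 1 and -0.74 ± 0.22 in batch 2. With the replicate number as a block it was -0.67 with an adjusted p of 0.0295. Fosb had between 0 and 24 counts per library, at most 1.94 CPM at 2% CO2 and 1.13 CPM at 10% CO2, and a change in it was not detectable at this depth.

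**Figure D3:**
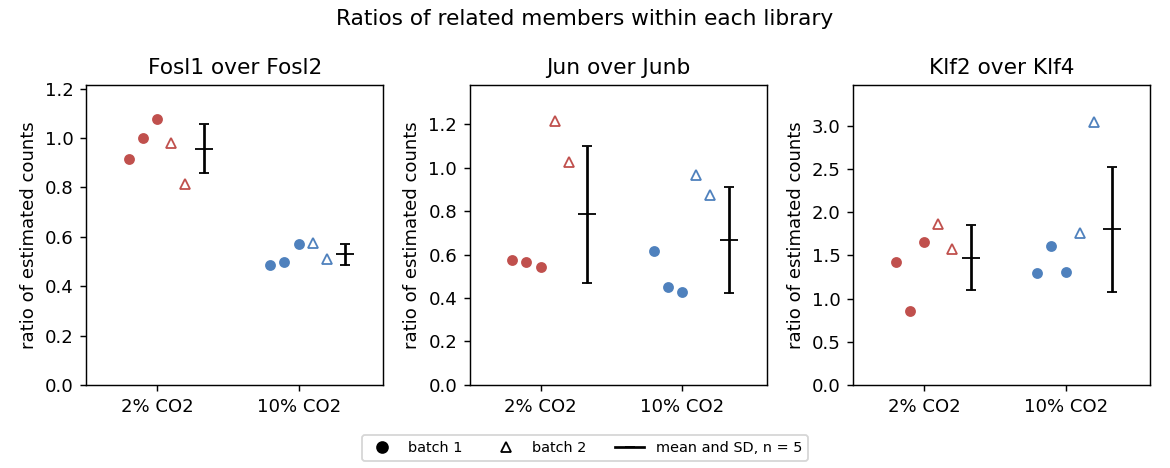
Ratio of estimated counts of related members within each library, 2% CO2 left and 10% CO2 right; circles are batch 1, triangles batch 2, bars the mean and SD of 5 libraries. Fosl1 over Fosl2 is 0.812 to 1.075 at 2% CO2 and 0.485 to 0.576 at 10% CO2, and Jun over Junb parts by batch.

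In the JUN family, Jun (c-JUN, the main partner of FOS proteins) was at 91.9, 123, 96.8, 156 and 147 CPM at 2% CO2, against 109, 96.0, 98.7, 135 and 140 CPM at 10% CO2. In CPM the levels overlapped in batch 1, and in batch 2 both 2% CO2 libraries were above both at 10% CO2. With TMM scaling batch 2 overlapped as well. There the log2 CPM of replicates 4 and 5 was 7.25 and 7.13 at 2% CO2, against 7.12 and 7.23 at 10% CO2. The fitted log2 change of Jun (-0.03 ± 0.10, SE, edgeR adjusted p = 0.912) was the smallest in size of the 9, and a span of 2 SE runs from 0.854 to 1.12 in fold. The sign turned with library total scaling, to 0.05. Junb, a weaker activator that can oppose JUN, was at 160, 218, 178, 128 and 144 CPM at 2% CO2, against 177, 212, 231, 139 and 160 CPM at 10% CO2. Its groups overlapped, and its log2 fold change was -0.26 ± 0.10 (SE; edgeR adjusted p = 0.116), with -0.27 in batch 1 and -0.22 in batch 2. The ratio of Jun over Junb was 0.785 ± 0.314 at 2% CO2 and 0.667 ± 0.245 at 10% CO2 (SD, n = 5 each), overlapping between the levels. Junb overlaps Prdx2 and Jun overlaps Junos on the opposite strand in GENCODE M21. Prdx2 had a log2 fold change of -0.17 (edgeR adjusted p = 0.436) and Junos 59.5 counts in all.

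Egr1 was at 26.7, 56.0, 61.2, 29.1 and 41.6 CPM in 2% CO2 replicates 1 to 5, against 43.2, 51.7, 49.4, 61.4 and 68.4 CPM at 10% CO2. The 2 high 2% CO2 libraries were the shallow replicates 2 and 3, where Egr1 had 10 and 31 counts, and the other 3 lay below every 10% CO2 library. The fit, which weighs libraries by depth, gave a log2 fold change of -0.71 ± 0.18 (SE, n = 5 each; edgeR adjusted p = 0.0156), with -0.38 ± 0.23 in batch 1 and -0.95 ± 0.18 in batch 2. The call was lost without 2% CO2 replicate 1 (adjusted p = 0.0553), without 2% CO2 replicate 4 (0.0613), without 10% CO2 replicate 4 (0.104), in batch 1 alone (0.335) and without the batch term (0.177).

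Zfp36 was at 11.4, 11.2, 13.8, 18.2 and 17.0 CPM at 2% CO2, against 21.6, 24.7, 27.3, 23.2 and 21.3 CPM at 10% CO2. The levels did not overlap, which held for 2 of the 9 tested members (Klf4 and Zfp36) and for 5.18% of all tested genes. The log2 fold change was -0.70 ± 0.15 (SE, n = 5 each; edgeR adjusted p = 0.00439), with -1.05 ± 0.24 in batch 1 and -0.47 ± 0.16 in batch 2. Its call held in all 10 fits that left out a library, at an adjusted p of at most 0.0312 by edgeR, and was lost in batch 2 alone (0.176). In batch 1, 2% CO2 replicates 2 and 3 held only 2 and 7 counts of Zfp36. In batch 2, replicates 4 and 5 at 2% CO2 held 225 and 205. An antisense transcript annotated over Zfp36, Gm44710, had 4 counts in all.

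Within single batches, 3 members were called in batch 1 (Klf2, Klf4 and Zfp36; 6.22% of all genes tested there) and 4 in batch 2 (Klf2, Klf4, Fosl1 and Egr1; 1.83%). The sign was the same in both batches for 6 of 9 tested members, the exceptions being Fos, Fosl2 and Jun. A CO2 by batch interaction passed for 0 members and for 0% of all tested genes by edgeR, and 0 members had an unadjusted p under 0.05, against 8.75% of all tested genes; the smallest member values were 0.0546 for Zfp36 and 0.0662 for Fosl2. An exact two-sided permutation test of log2 CPM within batches has 120 regroupings and can reach 0.0167. It gave that smallest p for Klf2, Klf4 and Zfp36, 0.0333 for Fosl1, 0.05 for Junb, 0.150 for Egr1, 0.183 for Fosl2, 0.300 for Fos and 0.817 for Jun, not adjusted for the 9 members. This test gives every library equal weight.

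**Figure D4:**
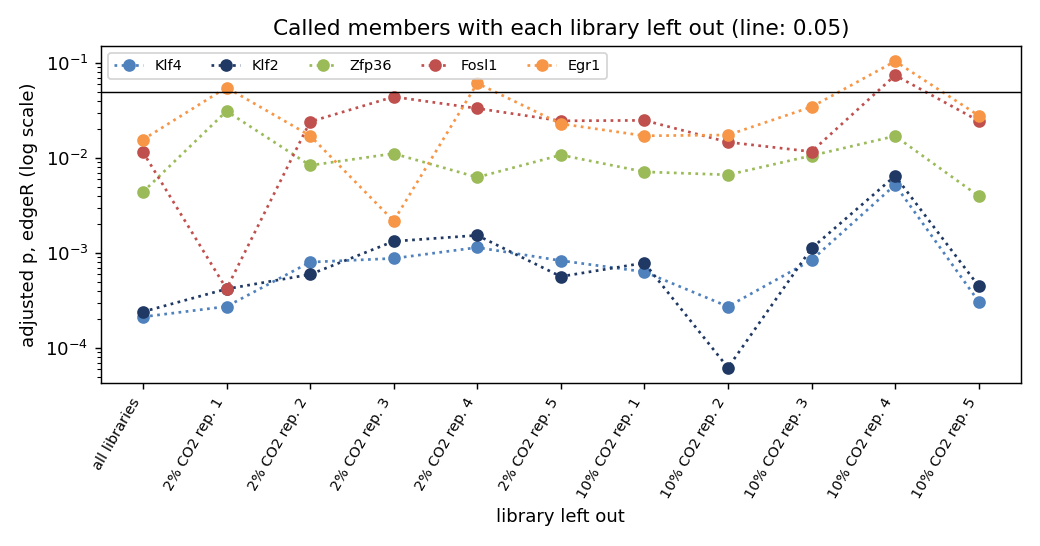
Adjusted p of the 5 called members by edgeR (log axis) with all libraries and with each library left out; the line marks 0.05. Klf4, Klf2 and Zfp36 stay below the line, Fosl1 crosses it without 10% CO2 replicate 4, and Egr1 without that library or 2% CO2 replicates 1 or 4.

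Per kilobase of exon (GENCODE M21 exon lengths), at 10% CO2 the members ran from Junb at 80.0 ± 16.3 through Jun at 36.3 ± 6.42, Fosl1 at 21.8 ± 3.33, Klf2 at 14.7 ± 4.13 and Egr1 at 12.2 ± 2.23 to Fosl2 at 8.65 ± 0.909 CPM per kilobase (SD, n = 5). Below these stood Zfp36 at 6.81 ± 0.709, Klf4 at 5.13 ± 0.904, Fos at 4.77 ± 3.25 and Fosb at 0.126 ± 0.0758. From Fosl1 down to Fos, neighbours in this order overlapped between libraries. At 2% CO2 the level of Klf4 per kilobase was 11.4 ± 2.43 and that of Zfp36 4.13 ± 0.919 (SD, n = 5), without overlap, and Fosl1 at 37.6 ± 9.69 overlapped Jun at 38.6 ± 9.04. The sources used here do not state coverage along the transcript, so levels between genes are approximate.

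Of 12 tested AP-1 partners and relatives, 1 rose and 2 fell, with a median log2 fold change of 0.10. Atf3, a stress-induced factor that dimerises with JUN proteins, averaged 16.0 ± 4.81 CPM (SD, n = 5) in 2% CO2 libraries, against 5.72 ± 1.00 CPM in 10% CO2 libraries, with a fitted log2 change of 1.28 (edgeR adjusted p = 0.000161). Jdp2, a repressor of AP-1, fell by 0.71 (edgeR adjusted p = 0.00140). Jund, the JUN protein most abundant in resting cells, fell by 0.46 (adjusted p = 0.0314), and its call was lost with library total scaling (0.0876) and in fits lacking any one of 2% CO2 replicates 1, 3 or 4 and 10% CO2 replicates 3 and 4, at adjusted p of 0.0562 to 0.101. Of 30 tested other immediate early genes 1 rose and 5 fell, with a median of 0.06. Tiparp, a mono-ADP-ribosyltransferase, averaged 61.8 ± 14.1 CPM (SD, n = 5) in 2% CO2 libraries, against 27.6 ± 4.69 CPM in 10% CO2 libraries, with a fitted log2 change of 1.00 (edgeR adjusted p = 0.000150). Ccn1, a matricellular protein, fell by 0.53, and was lost without the 3 shallowest libraries (edgeR adjusted p = 0.0521).

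Of the other early genes that fell, Nfil3, Ccn2 and Trib1 were less stable, and Srf is given below with its cofactors. Nfil3 fell by 0.59 and was lost without 2% CO2 replicates 1 or 4 (adjusted p = 0.0632 and 0.0714 by edgeR). Ccn2 fell by 0.48 (adjusted p = 0.0484) and, in 10 fits with 1 library removed each, kept the call in those without 2% CO2 replicate 4 or 10% CO2 replicate 5, with adjusted p up to 0.161 in the others. Ccn2 also lost it with RLE (0.0504) and library total scaling (0.104). Trib1, named after its value was seen, fell by 0.66 and was lost without 2% CO2 replicates 1 to 4 or 10% CO2 replicate 3, at adjusted p up to 0.143, and with library total scaling (0.0594). Myc and Dusp1 missed the threshold, with fitted log2 changes of 0.31 and 0.38 (edgeR adjusted p = 0.114 and 0.102), but passed it without 2% CO2 replicate 1 (0.0216 and 0.0395) and with the replicate number as a block (0.0253 and 0.0143). Myc also passed in batch 2 alone (0.0496), and Dusp1 without the filter (0.0426).

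Among the 7 tested genes of the SRF system, which drives Fos and Egr1, 0 rose and 2 fell, with a median of -0.26. Srf itself, counted also with the early genes, averaged 56.8 ± 14.3 CPM (SD, n = 5) in 2% CO2 libraries, against 81.1 ± 15.1 CPM in 10% CO2 libraries, with a fitted log2 change of -0.66 (edgeR adjusted p = 0.00109). Elk3, a ternary complex factor that can repress, fell by 0.57 (edgeR adjusted p = 0.00452). Both calls held without any single library, but were lost without the batch term (0.150 for Srf and 0.0887 for Elk3) and in batch 2 alone (0.0548 and 0.169). The SRF coactivators Mrtfa and Mrtfb and the ternary complex factors Elk1 and Elk4 missed the threshold, with fitted log2 changes of -0.26, -0.08, -0.31 and -0.06.

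**Figure D5:**
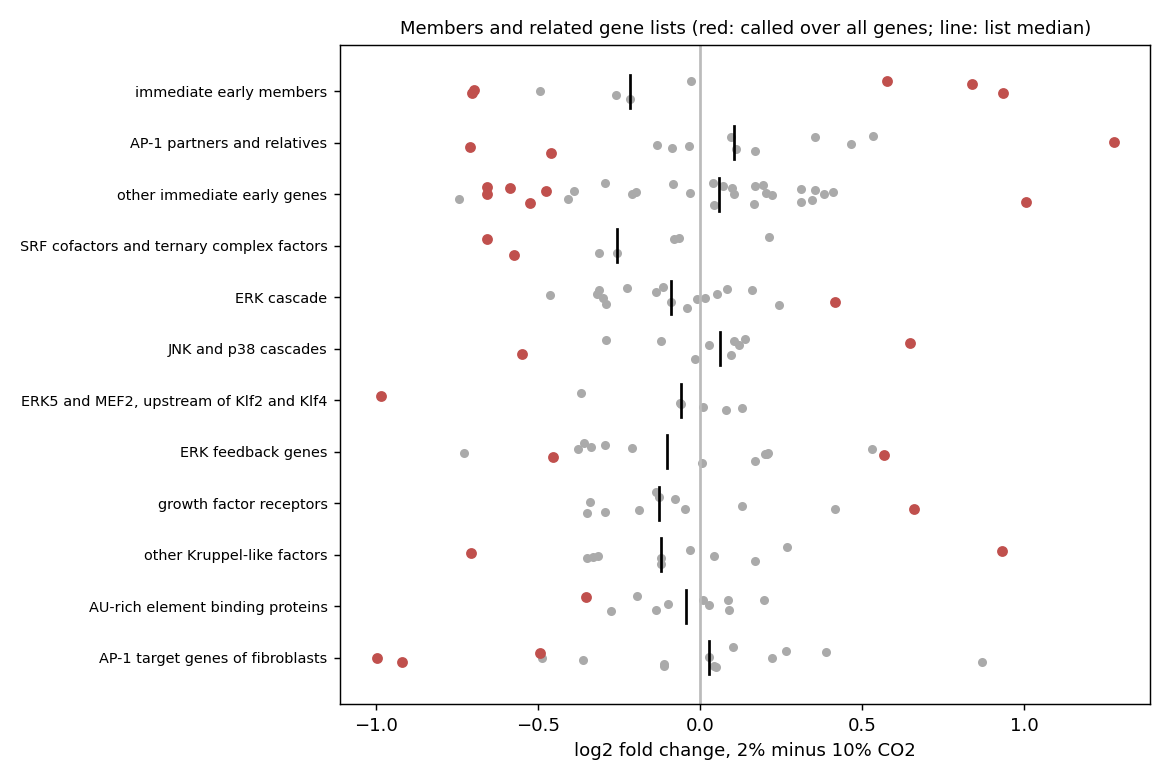
Log2 fold change, 2% minus 10% CO2, of the tested genes of each list; red points were called over all genes, grey were not, and black lines are list medians. Calls in both directions occur among the members, the AP-1 relatives and the other early genes, and the 2 calls among SRF genes are both below 0.

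The median log2 fold change was -0.09 in the ERK cascade, 0.06 in the JNK and p38 cascades, -0.06 in the ERK5 and MEF2 axis and -0.10 in the ERK feedback list. In the ERK cascade 1 of 17 tested genes rose and 0 fell: Araf, a RAF kinase, at 0.41 (edgeR adjusted p = 0.0203), lost in fits lacking any one of 2% CO2 replicates 1 or 4 and 10% CO2 replicates 3 and 4 at adjusted p of 0.0537 to 0.100. Of 10 tested JNK and p38 cascade genes, Mapkapk2, the kinase that phosphorylates ZFP36, fell by 0.55 (adjusted p = 0.00129). Mapkapk3 rose by 0.65 (0.0321) and was lost in fits lacking any one of 2% CO2 replicates 1, 3 or 4 and 10% CO2 replicates 3 and 4, at adjusted p up to 0.172. Of 7 genes of the ERK5 and MEF2 axis 0 rose, and Mef2c fell by 0.99 (edgeR adjusted p = 0.0190), averaging 2.14 ± 2.04 CPM (SD, n = 5) in 2% CO2 libraries, against 4.98 ± 2.27 CPM in 10% CO2 libraries. That call was lost without 2% CO2 replicate 4 (0.0917) or 10% CO2 replicate 4 (0.298). Mapk7 (ERK5), Mef2a and Mef2d missed it, at -0.06, -0.06 and 0.01.

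Of 14 tested genes in the ERK feedback list 1 rose and 1 fell. Ppp1r15a, placed in this list though a phosphatase subunit of the stress response, rose by 0.57 (edgeR adjusted p = 0.0173). Its edgeR adjusted p was 0.0708 without 2% CO2 replicate 4 and 0.186 without 10% CO2 replicate 4. Dusp7, an ERK phosphatase, fell by 0.45 (edgeR adjusted p = 0.0309), lost in fits lacking any one of 2% CO2 replicates 1, 3 or 4 and 10% CO2 replicates 3 and 5 at adjusted p of 0.0507 to 0.108, and with library total scaling (0.0743). Dusp6, a widely used readout of ERK output, did not pass, at 0.01 ± 0.16 (SE). Of 11 tested receptor genes (growth factor receptors together with Lpar1, F2r and S1pr2) 1 rose, Fgfr2 at 0.66 (edgeR adjusted p = 0.00283, 0.0582 without 10% CO2 replicate 4), and 0 fell. The 5 proton-sensing receptor genes had at most 17.5 counts each over all libraries and could not be tested.

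Of 11 other tested Kruppel-like and SP factors 1 rose and 1 fell, with a median of -0.12. Klf5 averaged 113 ± 36.8 CPM (SD, n = 5) in 2% CO2 libraries, against 52.2 ± 13.8 CPM in 10% CO2 libraries, with a fitted log2 change of 0.93 (edgeR adjusted p = 0.000199), and Klf7 fell by 0.71. Both calls held without any single library, but in batch 2 alone both were lost (0.0611 for Klf5 and 0.204 for Klf7, at a log2 change of -0.39), and Klf7 also without the batch term (0.0536). Among 10 AU-rich element binding and deadenylation genes, Cnot8 fell by 0.35 (adjusted p = 0.0471), a call that, of the 10 fits leaving out a library, held in the one without 10% CO2 replicate 5, with adjusted p up to 0.105 in the others. It was also lost with library total scaling (0.125), without the filter (0.104) and with the replicate number as a block (0.0571). The ZFP36 relatives Zfp36l1 and Zfp36l2 and the stabilising protein gene Elavl1 missed the threshold, with fitted log2 changes of -0.27, 0.09 and -0.14.

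Of 15 tested genes known as AP-1 targets in fibroblasts 0 rose and 3 fell, with a median of 0.03. Among them, Itga5 (the integrin chain of the fibronectin receptor) averaged 69.7 ± 10.7 CPM (SD, n = 5) in 2% CO2 libraries, against 117 ± 17.7 CPM in 10% CO2 libraries. Itga5 fell by 0.92 on the log2 scale (edgeR adjusted p = 0.000122) and Mmp14 (a membrane protease) by 0.50, where Mmp14 missed the threshold once 10% CO2 replicate 4 was left out (0.0553 by edgeR). The secreted proteases Mmp3, Mmp9, Mmp10 and Mmp13 had 1 to 29 counts each over all libraries and were not tested.

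Calls of other list genes also varied with the batch term. Without it, edgeR lost the calls of Jdp2 (adjusted p = 0.212), Jund (0.655), Ccn1 (0.195), Nfil3 (0.0999), Ccn2 (0.183), Trib1 (0.0745), Araf (0.193), Mapkapk3 (0.0887), Mef2c (0.534), Ppp1r15a (0.128), Dusp7 (0.0812), Cnot8 (0.449) and Mmp14 (0.0839), while Atf3, Tiparp, Mapkapk2, Fgfr2, Klf5 and Itga5 kept theirs. Among the cell type markers, Kdr (0.0503 by edgeR) also lost its call without the batch term, as did Col1a1, Col1a2 and Vim. Tiparp and Itga5 were called in each batch alone. Atf3 and Mapkapk2 were lost in batch 2 alone (0.0567 and 0.0528), and Fgfr2 in batch 1 alone (0.202).

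Genes most like the 3 called members with the smallest adjusted p were sought among 3664 genes of at least 50 CPM, by correlation of log2 CPM over the 10 libraries after removing batch means. For Klf4 these were Tra2a (r = 0.983), Klf5 (0.979) and Atp6v1d (0.971), with log2 fold changes of 0.27, 0.93 and 0.81. Tra2a did not pass (edgeR adjusted p = 0.0773). For Klf2 they were Riok2 (0.978), Ngdn (0.958) and Eif1 (0.951), with log2 fold changes of 0.40, 0.66 and 0.56. A high correlation thus did not always go with a change of like size. For Zfp36 they were Tpm4 (0.980), Txndc5 (0.977) and Surf4 (0.975), with log2 fold changes of -0.61, -0.55 and -0.60. These correlations are descriptions over libraries that share their CO2 level, batch and depth.

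The members also differed between batches: the batch term of the edgeR model passed for 6 of 9 tested members, against 36.0% of all tested genes. Fos was higher in batch 2 by 1.42 ± 0.25 on the log2 scale (SE; edgeR adjusted p = 0.000307), Klf2 by 0.72, Jun by 0.51, Fosl2 by 0.45 and Fosl1 by 0.45, while Junb was lower in batch 2, at -0.44 ± 0.11 (SE; edgeR adjusted p = 0.00348). Klf4, Egr1 and Zfp36 missed the threshold, at edgeR adjusted p of 0.0579, 0.399 and 0.973.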

How the data were processed

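RNA from 10 libraries was analysed. The tools, per the submitters' processing notes, include MultiQC 1.32, Subread 2.1.1 (featureCounts), SAMtools 1.22.1 and STAR 2.7.11, with genome build GRCm39. Settings, strand and annotation are not stated there. Values in the deposited table are estimated counts for each gene, fractional in at least 1 library for 5 members. The authors also deposited CPM, which equal counts over the library total to within 4.78e-05 and were not used further.

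Counts were rounded and fitted with edgeR 4.0.16 in R 4.3.3 on all 10 libraries. Genes were kept by filterByExpr with CO2 level as the group, at a minimum count of 10 and a minimum total of 15. That function turns the minimum count into a CPM cutoff to be met in several libraries. The genes kept were scaled by TMM and tested by robust quasi-likelihood F tests of CO2 with batch as a term. Adjustment was by Benjamini-Hochberg over 13198 genes. Log2 fold changes are 2% minus 10% CO2. Printed CPM are counts over the library total. The 92 spike-in entries, at 0, were left out. The script was tested on simulated data.

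The members and lists were chosen with earlier results of these data known. The rule for named genes took all members, the up to 4 tested genes with the lowest adjusted p in each list, a set of regulators whether called or not, and the 3 genes most like each of the 3 called members with the smallest adjusted p. Genes of the lists that were not called are given mostly as counts. One gene that the rule names is not reported here. Same-numbered libraries of both CO2 levels deviated together in all 5 pairs (correlations 0.28 to 0.87 after removing level means). After batch means were also removed these were 0.03 to 0.43, so the replicate block was an alternative beside the batch term. None of 8 library pairs within a level and batch agreed within sampling noise. Results were recomputed without the filter or the batch term, with the block, in each batch alone, with libraries left out, with DESeq2 1.42.0, and with scaling by RLE or library totals.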

Additional observations from a re-analysis of the deposited data

Results flagged for a closer look

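Of 26 groups of 5 libraries examined for a library far from the rest, 2 had one, where chance gives about 1 in 20. The first was Fosl1 at 2% CO2: replicate 1 stood at 42.0 CPM and the next lowest library at 78.4 CPM. The second was the ratio of Klf2 over Klf4 at 10% CO2: replicate 5, a shallow library with 10.5 counts of Klf4, stood at 3.05 and the next highest at 1.76.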

How the results depend on the processing

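The 3 higher and 2 lower members were called alike by DESeq2, RLE and library total scaling and without the filter. Without a batch term 2 members were higher and 1 lower, as Fosl1 (0.0732) and Egr1 (0.177) lost their calls, and 125 genes were higher and 226 lower over all tested. Batch 1 alone gave 2 higher members and 1 lower, with 326 genes higher and 437 lower, and batch 2 alone 3 higher and 1 lower, with 124 higher and 143 lower. Leaving out each library in turn gave 266 to 703 genes higher, 470 to 1040 lower, 2 to 3 members higher and 1 to 2 lower; the lowest gene counts came without 10% CO2 replicate 4. With the replicate number as a block, 849 genes were higher and 1078 lower, and Fos, Myc and Dusp1 gained and Cnot8 lost the call.

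Signs turned only for genes that did not pass. In batch 1 alone Fos was at 0.14, Mef2d at -0.20 and Dusp6 at -0.16; in batch 2 alone Fosl2 was at 0.0168, Jun at 0.0482, Elk4 at 0.29, Mapk7 at 0.23, Mef2a at 0.10, Zfp36l1 at 0.0714 and Elavl1 at 0.0459. With library total scaling Jun was at 0.0472, Elk4 at 0.0055, Mapk7 at 0.0074 and Mef2a at 0.0093. Without a batch term Jun was at 0.0275, Mrtfb at 0.0514, Elk4 at 0.0481, Mapk7 at 0.0032, Mef2a at 0.0039 and Dusp6 at -0.0345. With the block Elk4 was at 0.0099, Mapk7 at 0.0341 and Mef2a at 0.0074. Without the 3 shallowest libraries Mef2d was at -0.0507 and Dusp6 at -0.0675. Leaving out single libraries, Jun ran from -0.0672 to 0.0055, Mrtfb from -0.19 to 0.0021, Elk4 from -0.20 to 0.10, Mapk7 from -0.17 to 0.14, Mef2a from -0.14 to 0.0257, Mef2d from -0.0959 to 0.0810 and Dusp6 from -0.11 to 0.13. The cause was not tested. Among the members, Fosb had too few counts to test in the fit of all libraries. In batch 2 alone Fosb was tested and did not pass, at 0.32 ± 0.69 (SE; edgeR adjusted p = 0.858).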
